A study of Capsella orientalis and Capsella grandiflora with 23 samples.

Results

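The 200 most abundantly read endosperm genes of Capsella grandiflora (Cg) were taken from 16105 genes that carried an exonic SNP in the first Cg cross pair. They were the genes with the largest number of reads per exonic SNP in that pair, summed over both parents and both cross directions. They were thus chosen by their read totals in Cg pair 1, and how many reads they held there is given as a description only. Their maternal shares, and their reads in the other 3 tables, were not used in the choice. Genes are named by their scaffold and interval as the deposited files list them, for which the build was not given in the sources used here.

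Endosperm is the seed tissue that feeds the embryo. In flowering plants it arises from a fertilisation of its own and carries 2 maternal genomes and 1 paternal genome. A gene read equally from each genome copy therefore gives a maternal share of 66.7%, here called the 2:1 share. An imprinted gene departs from that share towards the same parent whichever plant was the mother. A gene with unequal alleles follows the accession instead: the departure changes parent when the cross is reversed, which is why reciprocal crosses are made.

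The endosperm RNA came from crosses among 4 Cg accessions, labelled A to D, and between 2 accessions, A and B, of C. orientalis (Co). Cg is an outcrossing species and Co a self-fertilising one. The endosperm samples are A × B, B × A, C × D and D × C in Cg, with a second run of the last pair of crosses, and 4 runs each of A × B and B × A in Co. All mothers were emasculated and pollinated by hand, and endosperm of 300 to 500 pooled seeds was dissected 6 days after pollination. No label names a mutant or a transgene. A table gave a pair of reciprocal directions, so each species had 4 directions in 2 pairs. The files name the parent of an allele and a direction number, but no accession. Nothing in the labels says how many plants stood behind a library, so differences between libraries may be technical. The counts of a direction may join several runs. In the main fit of a species, each direction was a block. There, a p-value rests on how far the departure towards a parent differed between the 2 pairs, and on spread shared across genes. No repeat of an accession difference within a pair entered that spread. The tissue label was not checked against marker genes, because genes are listed by interval and not by name, and the roles of the 200 genes are likewise not given here.

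Depth differed between directions. Exonic allele reads over all genes numbered 8688213 and 8559754 in directions 1 and 2 of Cg pair 1, but 187220 to 871449 in the other 6 directions. The 95% Wilson interval of a gene's maternal share had a median width of 2.84 and 2.83 percentage points over the 200 genes in the directions of Cg pair 1. In the other 6 directions that median width was 6.21 to 11.1 points. Such intervals cover counting error only, and in sums over SNPs a read that spans several of them counts at each.

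The 200 genes were shorter than the others, and many rested on a single SNP. Their median length was 1601 bases, against 2267 bases in the other genes, and 1957.5 bases in the 200 genes that followed in the ranking. Of the 200, 48 (24%) were under 1 kb long, against 11.3% of the other genes, and 2 (1%) were over 5 kb, against 8.04%. A single exonic SNP carried the reads of 84 members (42%), against 29.9% of the other genes. Another 45 had 2 exonic SNPs and 71 had 3 or more, up to 18. The members lay on scaffolds 1 to 8, with 18 to 34 on each, and 99 of them on the minus strand. In 10 of them (5%) the interval overlapped another listed gene, and the library kit does not record the strand, so that reads there may belong to either gene.

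Reads per exonic SNP, summed over both directions of Cg pair 1, ran from 2745 at rank 200 to 23634.5 at rank 1. The median was 3876 in the 200 genes and 88.5 in the others. Of the members, 18 exceeded 8000 reads per SNP and 106 lay under 4000. The values thus fell steeply at the top of the list and then slowly.

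The 200 genes made up 1.24% of the genes of Cg pair 1 and held 13.2% of its exonic reads in direction 1 and 13.5% in direction 2. These reads fell on 522 of 62992 exonic SNPs. The member with most reads held 0.616% of all exonic reads of the pair, and the 10 members with most reads held 2.85%. In all, 1013 genes were needed to reach 50% of the reads.

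In the tables that the choice did not use, the same genes still held several times their share of genes. In Cg pair 2, where 138 of them had an exonic SNP (0.799% of its genes), they held 8.45% and 5.48% of exonic reads in directions 1 and 2. In Co pair 1 the 36 with a SNP (0.603% of genes) held 5.62% and 6.74%. In Co pair 2 the 35 with a SNP (0.681% of genes) held 7.56% and 6.80%. The 200 genes that followed in the ranking held less in each direction, from 2.76% to 4.61% in these 3 tables and 8.01% and 7.79% in Cg pair 1. In such bulk tissue, more cells that read a gene and more RNA per cell cannot be told apart. Co reads were the more concentrated: the 200 genes with most reads of each Co direction held 51.0% to 62.3% of its exonic reads, against 17.1% to 23.8% in the Cg directions. The Co tables list fewer genes, 5975 and 5136 with an exonic SNP, against 16105 and 17269 in Cg.

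**Figure D1:**
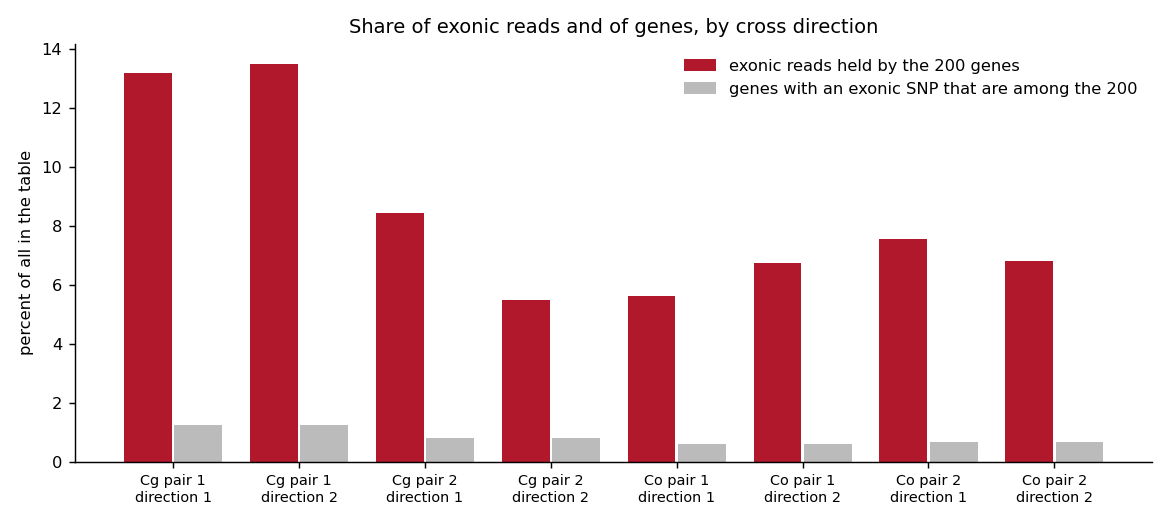
Bars give the percent of all exonic reads held by the 200 genes (red) and the percent of genes with an exonic SNP that they made up (grey), for each of the 8 cross directions. The red bars lie between 5.48% and 13.5%, and the grey bars between 0.603% and 1.24%.

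Of the members that had an exonic SNP in another table, most were also read abundantly there. Ranked by reads per exonic SNP among all genes of a table, the members with a SNP had a median percentile of 98.8 in Cg pair 2, 98.7 in Co pair 1 and 98.6 in Co pair 2. Their median was 180.9 reads per SNP in Cg pair 2, against 9.4 in its other genes. It was 463.75 in Co pair 1, against 18, and 930 in Co pair 2, against 22.5. In the top 10% of a table lay 117 of 138 members (84.8%) in Cg pair 2, 27 of 36 (75%) in Co pair 1 and 26 of 35 (74.3%) in Co pair 2. Among the table's own 200 most-read genes were 66 members in Cg pair 2, which is 47.8% of those with a SNP and 33% of that list. Both Co tables shared 23 genes with the list, 63.9% and 65.7% of the members with a SNP and 11.5% of each table's 200. Below the median gene lay 7, 7 and 4 members in Cg pair 2, Co pair 1 and Co pair 2.

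**Figure D2:**
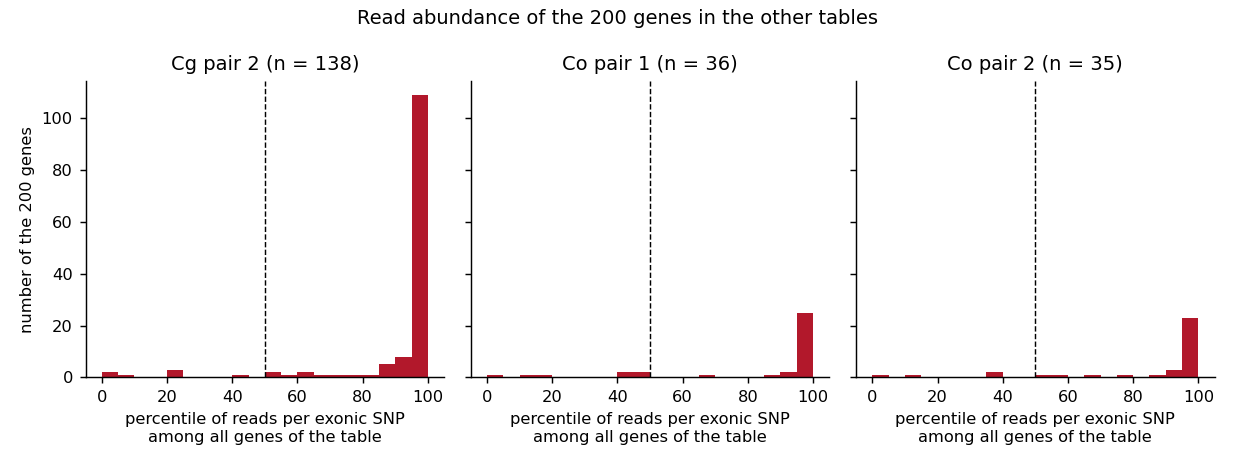
Histograms of the percentile of reads per exonic SNP that each of the 200 genes reached among all genes of the 3 tables not used to choose them, for the 138, 36 and 35 genes with a SNP there. Most genes stand at the right end, with medians of 98.8, 98.7 and 98.6, and a few lie left of the dashed line at the median gene.

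Coverage of the list was uneven between species. An exonic SNP in all 4 tables was present in 30 of the 200 genes, and 57 had one in Cg pair 1 only. Statements on Co thus rest on at most 36 of the 200 genes.

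Summed over the members, maternal shares lay close to 2:1 in Cg pair 1 and in Co, and farther from it in Cg pair 2. In Cg pair 1 the summed share was 63.6% (95% Wilson interval 63.5–63.7%) in direction 1 and 66.3% (66.3–66.4%) in direction 2, against 65.1% and 66.1% in the other genes. In Cg pair 2 it was 52.5% (52.0–53.0%) and 70.4% (70.0–70.8%), against 51.9% and 64.6%. The 2 directions of that pair thus stood on opposite sides of the dosage.

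In Co pair 1 the members' summed share was 64.9% (64.3–65.5%) and 65.3% (64.5–66.1%), against 61.3% and 66.5% in the other genes. In Co pair 2 it was 65.8% (65.4–66.3%) and 65.8% (65.3–66.3%), against 66.8% and 66.9%. All 4 Co intervals of the members lay below the 2:1 share, by a small distance. These cover counting error of the sum, and not the spread between genes. Of members with at least 20 reads, 14, 11, 13 and 16 lay above 2:1 in the 4 directions, and 16, 17, 17 and 15 below it.

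Single genes scattered around these sums. In Cg pair 1 the median member had a maternal share of 65.2% in direction 1, with quartiles of 59.6% and 69.3%. In direction 2 it had 67.1%, with quartiles of 62.5% and 70.9%. The median over members with at least 20 reads was 54.1% and 71.6% in Cg pair 2. It was 65.8% and 62.6% in Co pair 1, and 65.5% and 67.5% in Co pair 2. Quartiles in direction 1 of Cg pair 2 were 29.2% and 66.2%, the widest of the 8 directions.

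A larger percentage of members than of other genes lay near 2:1 in each direction. Within 5 percentage points of the 2:1 share were 51.0% of the 200 members in direction 1 of Cg pair 1 and 108 of them (54.0%) in direction 2, against 34.8% and 36.6% of the other genes with at least 20 reads. In Cg pair 2 they were 30 of 123 (24.4%) and 37 of 126 (29.4%), against 18.4% and 19.9%. In Co pair 1 they were 14 of 30 (46.7%) and 8 of 28 (28.6%), against 13.7% and 27.5%. In Co pair 2 they were 15 of 30 and 16 of 31 (51.6%), against 30.6% and 30.0%.

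This closeness went with depth. Other genes with at least 1000 reads in the direction, a comparator added after the data were seen, lay within 5 points in 53.1% and 56.0% of cases in Cg pair 1, where there were 2045 and 2004 of them. Those values are above the 51.0% and 54.0% of the members. In Cg pair 2 they were 28.6% of 14 genes and 21.1% of 19, and in the Co directions 48.2%, 61.1%, 53.7% and 50.6%, with 18 to 83 genes each. Along the ranking of Cg pair 1, the percentage within 5 points was 45.5% to 54.0% in every band of ranks from 1 to 2000. It was 20.0% and 21.8% past rank 8000, where genes with at least 20 reads had medians of 61 and 60 reads. The members had medians of 4232.5 and 4008.5 reads.

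Few members equalled 2:1 within counting error. The Wilson interval held the 2:1 share in 36 members (18.0%) in direction 1 of Cg pair 1 and in 33 (16.5%) in direction 2, against 37.8% and 40.7% of the other genes, whose intervals were wider. In the other 6 directions it held that share in 25.2% to 39.3% of members. Most of the 200 genes thus departed from 2:1 by more than counting error, many of them by under 5 points.

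**Figure D3:**
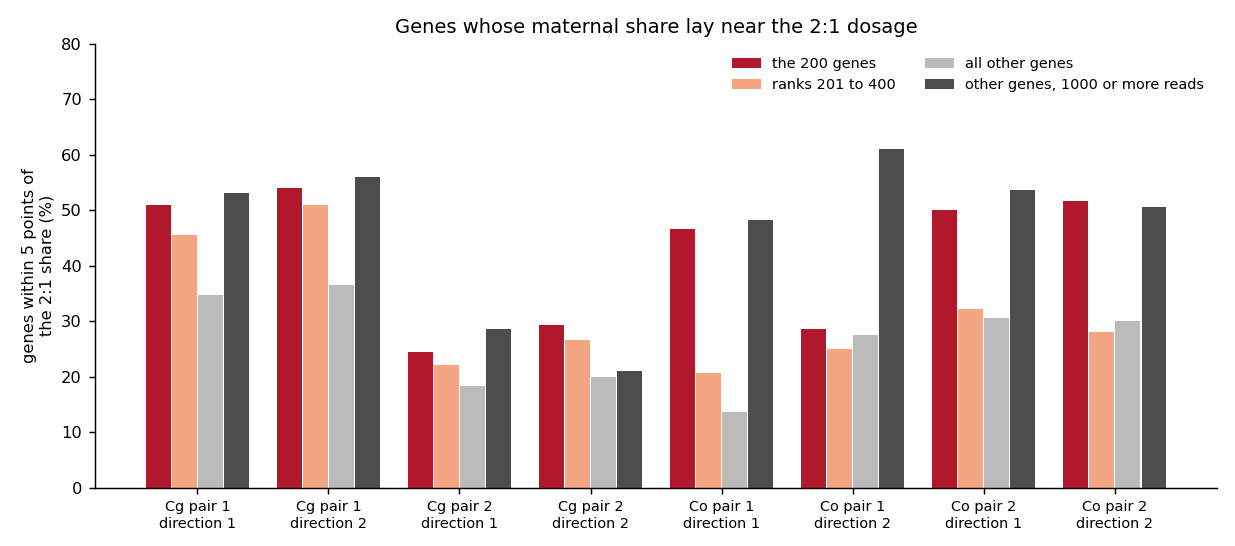
Bars give the percent of genes with at least 20 reads in a direction whose maternal share lay within 5 points of the 2:1 share, for the 200 genes, the 200 that followed in the ranking, all other genes, and other genes with 1000 or more reads. The 200 genes stand above all other genes in each direction, and in Cg pair 1 at 51.0% and 54.0% beside 53.1% and 56.0% of the deeply read other genes.

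Reversing the cross mostly moved a member to the other side of 2:1. In Cg pair 1 the maternal shares of the 2 directions lay on opposite sides in 154 of 200 members (77%), against 65.8% of the other genes. The counts were 90 of 121 (74.4%) in Cg pair 2, 21 of 28 (75%) in Co pair 1 and 24 of 30 (80%) in Co pair 2, against 59.6%, 57.0% and 55.2%. Among the 200 genes next in rank the values were 75.5% in Cg pair 1 and 69.2% in Cg pair 2. In Co they were 65% of 20 genes and 74.2% of 31. Members above 2:1 in both directions numbered 16, 9, 2 and 2 in these tables, and members below it in both numbered 30, 22, 5 and 4.

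Averaging the directions of a pair brought most members near 2:1 in Cg pair 1 and in Co, and fewer of them in Cg pair 2. The mean of both shares lay within 5 points in 164 members of Cg pair 1 (82%), although both single directions did so in only 83 (41.5%). For the other genes these values were 61.7% and 21.5%. In Cg pair 2 the mean lay within 5 points in 51 of 121 members (42.1%), in Co pair 1 in 19 of 28 (67.9%) and in Co pair 2 in 21 of 30 (70%). For the other genes these values were 30.5%, 37.3% and 43.8%. Among the genes next in rank, the mean lay within 5 points in 77.5% in Cg pair 1 and 45.8% in Cg pair 2. In Co it did so in 35% of 20 genes and 51.6% of 31. The median of the members' means in Cg pair 2 was 61.4%. The median absolute difference between directions was 7.83 points in Cg pair 1, 23.1 in Cg pair 2, and 9.11 and 9.41 in the Co pairs. It exceeded 20 points in 32 members of Cg pair 1 (16%), against 29.9% of the other genes and 18.5% of the 200 genes next in rank. Pair 2 had 66 such members (54.5%), near the 51.8% of the other genes and the 53.3% of the genes next in rank.

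**Figure D4:**
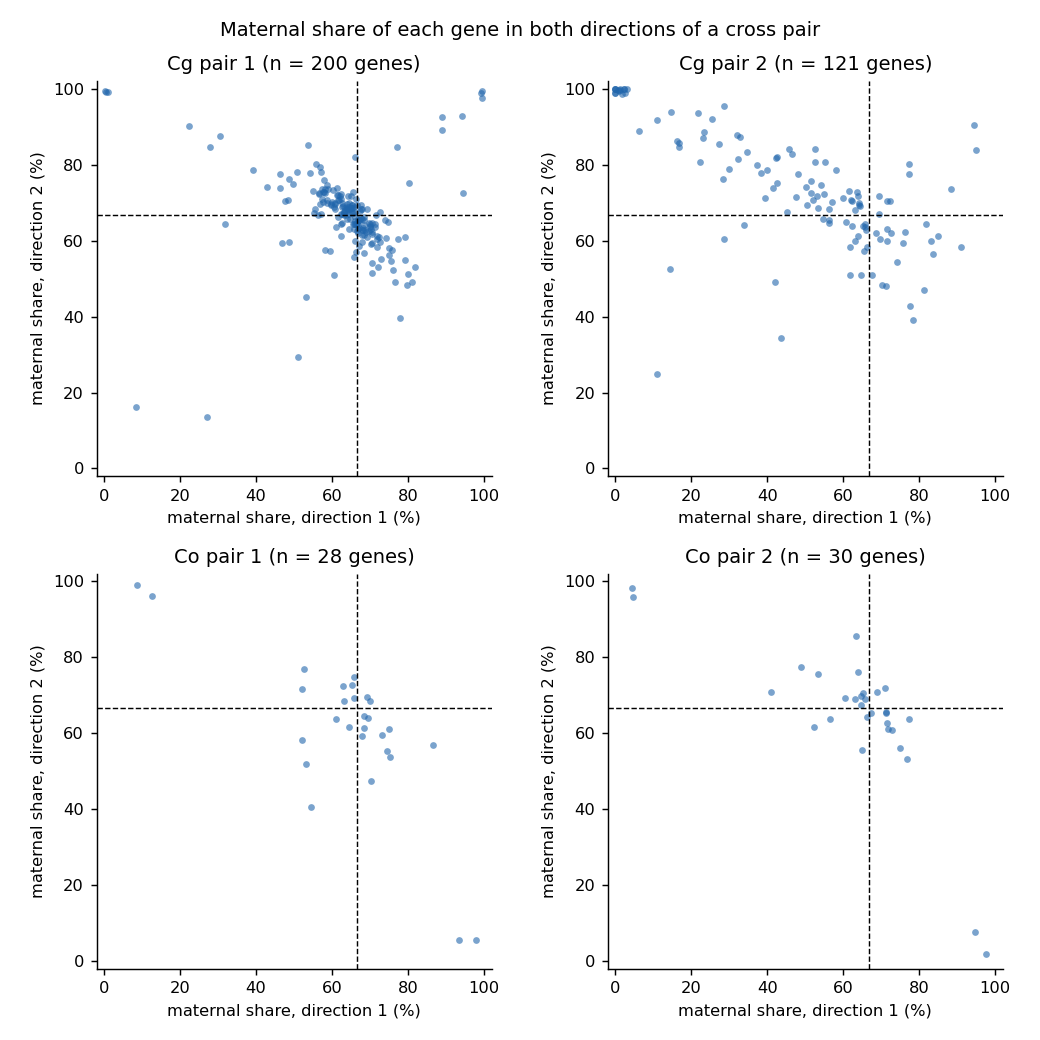
Each point is one of the 200 genes with at least 20 reads in both directions of a pair, with its maternal share in direction 1 (x axis, percent) and direction 2 (y axis, percent), and dashed lines mark 66.7%. Points run from top left to bottom right through the crossing of the lines, and in Cg pair 2 a group of 14 genes sits at the top left corner, under 5% in direction 1 and over 95% in direction 2.

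The 10 members with most reads per SNP in Cg pair 1 show this range. The first, on scaffold 8 (342195 to 342725, plus strand), had 27513 and 19756 reads over 2 SNPs in the directions of pair 1. Its maternal share was 67.2% (66.6–67.7%) and 58.6% (57.9–59.3%). In pair 2, where it was again the most-read gene per SNP, the share was 69.8% (67.7–71.7%) and 60.3% (58.5–62.1%). Direction 1 was the higher in both pairs, yet all 4 summed values lay within 10 points of 2:1. The 2 SNPs of pair 1 differed, with 59.1% and 73.6% in direction 1, and 52.6% and 66.9% in direction 2.

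Of these 10, 6 lay within 5 points of 2:1 in both directions of pair 1. The gene on scaffold 4 (9439219 to 9440016, minus strand) had 65.6% and 67.3% maternal over 4 SNPs. That on scaffold 1 at 2492523 to 2494113 (minus strand) had 64.6% and 65.7%, and that on scaffold 1 at 2720482 to 2721510 (minus strand) had 65.7% and 63.1%, over 1 SNP each. In pair 2 this last gene had 52.2% and 70.6%, with single SNPs from 0% to 80% in direction 1 and from 27.3% to 100% in direction 2. The gene on scaffold 3 (5897700 to 5900797, minus strand) had 68.8% and 62.3% over 1 SNP.

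Other members of the top 10 also differed between directions or pairs. The gene on scaffold 7 (3389920 to 3391540, plus strand) had 62.4% and 72.2% in pair 1, and 50.2% (44.7–55.6%) and 74.0% (69.8–77.9%) in pair 2. The pair 2 values sum 2 SNPs, with 39.1% and 60.9% in direction 1, and 66.4% and 81.9% in direction 2. The scaffold 6 gene at 15564927 to 15566050 (plus strand) had 75.9% and 52.2% in pair 1. Its summed shares in pair 2 were 53.0% and 71.6%, so the direction of the higher sum differed between the pairs. Its 2 SNPs of pair 2 with at least 20 reads disagreed, however. They gave 32.4% and 73.4% in direction 1, and 64.4% and 79.4% in direction 2. A gene on scaffold 1 (10658723 to 10661447, plus strand) stood near 2:1 in pair 1, at 65.9% and 64.3%, and far from it in pair 2, with 1137 of 2841 reads maternal in direction 1 (38.2–41.8%) and 78.5% in direction 2 (76.4–80.5%). Its 6 SNPs of pair 2 with at least 20 reads ranged from 34.4% to 67.6% in direction 1, and from 70.7% to 86.9% in direction 2. This gene was also read in Co, with maternal shares of 64.6%, 61.6%, 63.8% and 76.1%. Its accession term passed the Cg test described further on (edgeR adjusted p = 0.034).

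The gene at rank 10 was read from a single accession. On scaffold 1 (2494477 to 2495212, plus strand), 14 of 4824 reads were maternal in direction 1, 0.290% (0.173–0.487%), and 4155 of 4177 in direction 2, 99.5% (99.2–99.7%). These came from 1 SNP. The gene begins 363 bases past the end of the rank 7 gene on the opposite strand, which stood near 2:1 in the same directions.

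Ranked by summed exonic reads instead, the leading member was the scaffold 6 gene at 15029520 to 15030893 (plus strand), at rank 5 by reads per SNP. It had 46964 and 59312 reads over 11 SNPs and maternal shares of 65.2% (64.8–65.6%) and 69.3% (68.9–69.6%). Its single SNPs ranged from 54.8% to 75.2% in direction 1 and from 58.4% to 77.4% in direction 2. A summed value near 2:1 thus covered SNPs on both sides of it.

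The next by summed reads were a gene on scaffold 5 (6904275 to 6905893, plus strand) with 18 SNPs and the scaffold 4 gene at 991918 described below. The scaffold 5 gene had 46.3% (45.7–46.9%) and 77.6% (77.1–78.0%) in pair 1. In pair 2 it had 7 of 42 maternal reads, 16.7% (8.32–30.6%), and 84 of 98, 85.7% (77.4–91.3%). Direction 2 was the higher in both pairs, and the accession test passed (edgeR adjusted p = 0.0230). A gene on scaffold 5 at 11060291 to 11065474 (minus strand) had 66.7% and 65.6% over 16 SNPs in pair 1. In pair 2 a single SNP gave 2 of 90 maternal reads, 2.22% (0.612–7.74%), and all of 73, which allows down to 95.9%. Its interval overlaps another listed gene.

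A few members kept close to 2:1 in every direction of both species. Among the 22 members tested in both, 2 lay within 10 points in all 8 directions, 7 within 15 points and 0 within 5 points. The closest was on scaffold 6 (9477245 to 9478807, minus strand), never more than 6.16 points away. It had 70.2%, 62.9%, 64.0% and 71.6% in Cg, and 70.1%, 68.5%, 72.8% and 60.8% in Co, on 340 to 13981 reads. Its 7 SNPs of pair 1 did not all share that balance, since they ranged from 64.8% to 100% in direction 1 and from 5.12% to 77.4% in direction 2. The second, on scaffold 6 at 610808 to 612903 (plus strand), had 66.9%, 65.1%, 61.4% and 72.9% in Cg, and 67.9%, 59.3%, 71.3% and 65.3% in Co, where it held 9 SNPs. Its farthest value was 7.35 points away.

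The third, on scaffold 5 (8591172 to 8592148, plus strand), stayed within 3 points of 2:1 in 7 of 8 directions. It had 66.0%, 67.6%, 56.4% (48.7–63.7%) and 64.7% in Cg, and 65.7%, 69.2%, 64.5% and 67.5% in Co. The fourth, on scaffold 6 (15867042 to 15868924, minus strand), had 58.3%, 72.4%, 77.3% and 77.4% in Cg, where pair 2 held 22 and 31 reads, and 63.1%, 68.5%, 65.1% and 70.6% in Co. The next, on scaffold 1 (10958953 to 10960261, minus strand), had 65.7%, 55.7%, 62.2% and 63.7% in Cg, and 61.1%, 63.7%, 71.1% and 65.7% in Co. Within one species, 25 of 121 tested members in Cg and 13 of 28 in Co lay within 10 points in all 4 directions. Within 5 points lay 11 and 4.

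A fit of both pairs asked which genes departed from 2:1 towards one parent. It covered genes with at least 20 reads in every direction of a species: 121 of the 200 in Cg and 28 in Co. Of the other 79 in Cg, 62 had no exonic SNP in both pairs and 17 had too few reads. Of the other 172 in Co, 165 had no such SNP and 7 had too few reads. The log2 deviation is 0 at the 2:1 share and positive towards the mother, and p-values are those of edgeR's quasi-likelihood test, adjusted over all genes tested.

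Few of the abundant genes were called for a departure towards one parent in Cg. The test passed for 5 of 121 members (4.13%), against 1.76% of the 3698 genes tested, and for 5 of 120 of the 200 genes next in rank. All 5 members lay on 1 side of 2:1 in all 4 directions, 2 maternal (0.297% of all tested genes) and 3 paternal (1.22%). Called or not, 3 members lay above 2:1 in all 4 directions, against 2.73% of all tested genes, and 9 below it, against 5.73%. At an unadjusted p under 0.05 were 12 members, against 6.27% of all tested genes. Without either direction of pair 2, 0 members and 0 of all genes passed, in a fit that by construction lacks that pair's accession term.

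Deviations of the members were small. Their median was -0.11 (quartiles -0.27 and 0.02), against -0.19 in all 3698 genes, and the median absolute deviation was 0.18, against 0.29. Under 0.5 in size were 108 of 121 (89.3%), against 72.3%, and over 1 were 6 (4.96%), against 8.27%. The median of all genes moved to 0.02 when the allele counts were rescaled with TMM and to -0.03 with the null at each direction's median. That of the members moved to 0.09 and 0.04. A sign of the members' median therefore depends on the scaling.

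On the maternal side, the scaffold 5 gene at 8640281 to 8641210 (minus strand, 930 bases) had maternal shares of 89.0% (88.4–89.6%) and 92.4% (92.0–92.9%) in pair 1. Those of pair 2 were 94.3% (89.5–97.0%) and 90.4% (84.5–94.2%). All 4 values lay far above 2:1, and the 5 SNPs of pair 1 each gave at least 81.5%. Its deviation on the log2 scale was 2.44 ± 0.20 (edgeR adjusted p = 0.00633). Here and below, the value after ± is the SE derived from the fit, and not the spread of a gene over directions.

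The other maternal gene lay on scaffold 1 (2787853 to 2791432, plus strand), at rank 19. Its shares were 80.3% (79.5–81.0%) and 75.1% (74.3–75.8%) in pair 1, and 88.4% (86.4–90.1%) and 73.6% (69.7–77.2%) in pair 2. It was above 2:1 in every direction, with a deviation of 1.00 ± 0.16 (edgeR adjusted p = 0.0423). This call was also lost at a minimum of 50 reads (adjusted p = 0.0765) and without either direction of pair 1 (0.183 and 0.0604).

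On the paternal side, the largest deviation belonged to the scaffold 2 gene at 7693692 to 7697039 (plus strand), at rank 199. Its maternal share was 8.46% (8.03–8.90%) and 16.2% (15.6–16.8%) in pair 1, and 10.8% (6.44–17.7%) and 24.8% (17.6–33.6%) in pair 2. No value came near 2:1, and the 11 SNPs of pair 1 gave 5.09% to 13.2% in direction 1 and 9.88% to 21.6% in direction 2. The deviation was -3.67 ± 0.20 (edgeR adjusted p = 0.00164).

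The scaffold 4 gene at 991918 to 993291 (minus strand) was a milder case with much greater depth, among the 5 members with most summed reads. Its maternal share was 53.0% (52.4–53.7%) and 45.2% (44.6–45.8%) in pair 1, on 22838 and 26713 reads over 12 SNPs. In pair 2 it was 43.6% (40.9–46.3%) and 34.2% (31.5–37.1%). The mother gave more reads than the father in 1 direction, all values lay below 2:1, and the deviation was -1.35 ± 0.16 (edgeR adjusted p = 0.0209). Single SNPs gave 44.8% to 59.5% and 37.6% to 54.1% in the directions of pair 1. Those with at least 20 reads in pair 2 ranged more widely, from 0% to 64.3% in direction 1 and from 6.67% to 38.4% in direction 2.

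The third paternal gene mixed parent and direction. On scaffold 2 (2236873 to 2241290, plus strand), its maternal share was 50.9% (48.5–53.3%) and 29.2% (27.5–31.0%) in pair 1. In pair 2 it was 14.3% (12.4–16.4%) and 52.5% (49.3–55.7%). It stayed below 2:1 throughout, with a deviation of -1.91 ± 0.20 (edgeR adjusted p = 0.0139), although the direction with the lower share differed between the pairs. Pair 1 rested on 1 SNP and pair 2 on 11. Single SNPs with at least 20 reads in pair 2 gave 9.80% to 21.2% in direction 1 and 0% to 61.3% in direction 2.

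The largest Cg deviation among the members did not pass the test. The scaffold 2 gene at 1047690 to 1050750 (minus strand) had maternal shares of 99.6% (99.4–99.7%), 97.6% (96.9–98.1%), 94.9% (92.8–96.3%) and 83.8% (79.1–87.6%) in the 4 Cg directions. Its deviation was 3.97 ± 0.81 (edgeR adjusted p = 0.106). Of the alternative settings, 7 called it and 7 did not. It passed with DESeq2 (adjusted p = 2.33e-10), TMM (0.00985), the median null (4.67e-05), all SNPs of the gene (0.0212) and SNPs read in both directions (0.0321). It failed at a minimum of 10 reads (edgeR adjusted p = 0.0776) or 50 reads (0.302), and without the accession term (0.511). Paternal reads numbered 20, 59, 32 and 46 in the 4 directions.

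**Figure D5:**
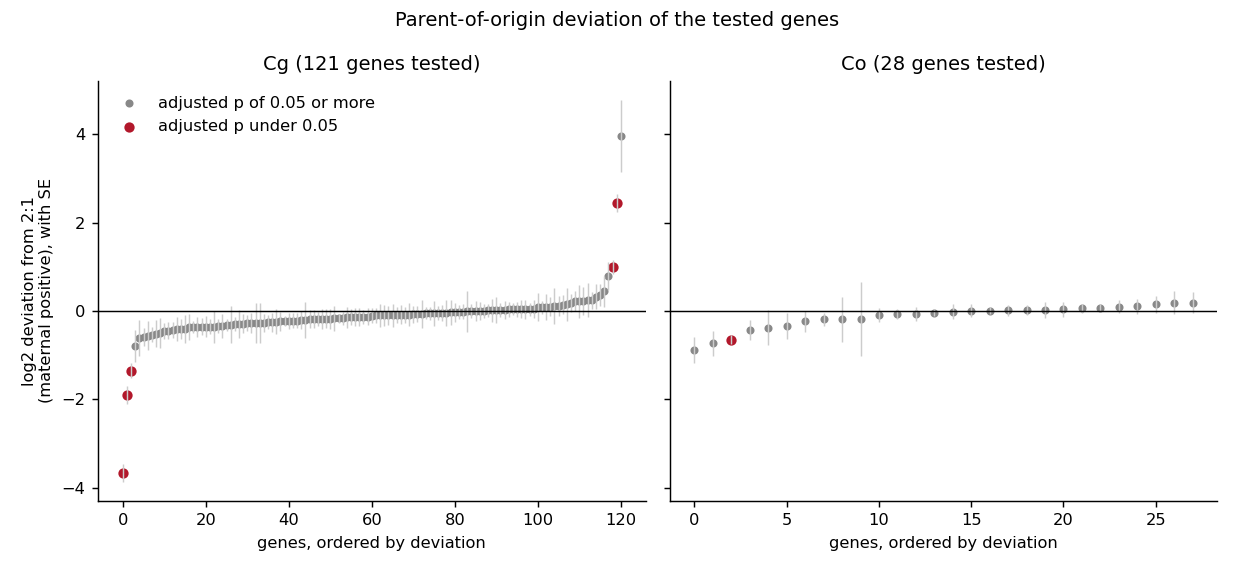
Log2 deviation from 2:1 with its SE for each tested member, ordered by size, in Cg (left, 121 genes) and Co (right, 28 genes), with positive values maternal and called genes in red. Most genes lie along 0, and in Cg the red points reach from -3.67 to 2.44, while an uncalled gene stands at 3.97.

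In Co, 1 of 28 tested members was called for a departure towards a parent, against 7.58% of the 1213 genes tested and 4 of 20 of the genes next in rank. It was paternal in all directions (1.15% of all tested genes), and 0 members were called maternal in all directions (2.56%). Called or not, 0 members lay above 2:1 in all 4 directions, against 8.66%, and 1 below it, against 3.87%. DESeq2 called 0 members, against 3.22% of all tested genes. At an unadjusted p under 0.05 were 3 members, against 15.7% of all tested genes. The members' median deviation was -0.03, against 0.04 in all genes. In absolute terms the median was 0.10, against 0.27, with 25 of 28 (89.3%) under 0.5, against 71.2%, and 0 over 1, against 11.6%.

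The called Co gene lay on scaffold 5 (12006794 to 12008735, minus strand), and its departure was small. Its maternal share was 52.0% (48.9–55.1%) and 58.2% (54.7–61.6%) in Co pair 1, and 52.3% (50.3–54.2%) and 61.7% (60.0–63.4%) in Co pair 2, over 2 SNPs. All lay below 2:1, with a deviation of -0.65 ± 0.10 (edgeR adjusted p = 0.000144). The call was lost with DESeq2 (adjusted p = 0.329) and with any direction left out (edgeR adjusted p from 0.214 to 0.662).

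In Cg the same gene had 59.5% (58.1–60.9%) and 57.3% (55.9–58.7%) in pair 1. In pair 2, 0 of 169 reads were maternal in direction 1, which allows up to 1.78%, and all of 134 in direction 2, which allows down to 97.8%. Its Cg deviation was -0.51 ± 0.31 (edgeR adjusted p = 0.914). Whether Cg and Co differ for the members was not tested.

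In Cg, accession differences were called in more members than parental ones were. The joint test of both accession terms passed for 29 of 121 members (24.0%), against 4.98% of all tested genes and 11 of 120 next in rank. None of the 5 genes called for parent was among them, and 87 members were called for neither. In 27 of the 29 the larger term was that of pair 2. By size, called or not, members did not stand out as they did by calls. The log2 accession term of pair 2 exceeded 1 in size in 47 members (38.8%), against 37.2% of all tested genes. That of pair 1 did so in 6 members (4.96%), against 13.1%. Reads in pair 2 differed between members and other genes, so the calls are also given by depth in that pair. Among genes with 40 to 200 reads in pair 2, 8 of 25 members (32%) and 3.62% of the other genes were called, and at 800 or more reads 7 of 38 (18.4%) and 14.1%. These bands of depth were added after the data were seen. They do not match the reads of pair 1, by which the members were chosen and which the fit also used. The contrast with all genes depended on the fit: 34 of 121 members passed with DESeq2, against 13.6% of all tested genes, and 43 of 121 with the null at each direction's median, against 15.4%. At a minimum of 1 read 55 of 135 members passed, against 8.67%, and at 50 reads 19 of 108, against 4.39%. Without either direction of pair 2, where only the term of pair 1 could be tested, 0 members and 0 of all genes passed.

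Many of these calls were genes read from a single accession, defined as under 5% maternal in one direction and over 95% in the other. Cg pair 2 held 14 of them among 121 members (11.6%), against 3.75% of the other genes and 8 of 120 next in rank (6.67%). Counted by SNP, the shares were close: 31 of 259 member SNPs in pair 2 were read from a single accession, against 541 of 4905 in other genes. Cg pair 1 held 3 such members of 200 (1.5%), against 1.61%. All 14 of pair 2 were called for accession. They were maternal in direction 2 and paternal in direction 1, so that the same accession of pair 2 was the one read. In the other genes this held for 176 of 181. A single exonic SNP carried 10 of the 14, whereas 37 of all 121 members had 1 SNP in that pair.

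In pair 1, 12 of the same 14 genes lay within 10 points of 2:1 in both directions, and their medians were 61.5% (range 47.5% to 74.6%) and 67.9% (range 51.5% to 74.6%). An example is the scaffold 4 gene at 12592685 to 12594787 (minus strand), among the last 5 of the list. It had 71.9% and 58.3% in pair 1, and 3 of 224 maternal reads, 1.34% (0.457–3.86%), and 333 of 334, 99.7% (98.3–99.9%), in pair 2.

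Of the 3 members read from a single accession in pair 1, the rank 10 gene and a gene on scaffold 7 (3659104 to 3660450, minus strand) did not enter the fit. The scaffold 7 gene, named after its values were seen, had 6 of 1152 maternal reads, 0.521% (0.239–1.13%), and 2033 of 2050, 99.2% (98.7–99.5%), at 1 SNP. Among members that were tested, the largest difference of pair 1 was on scaffold 1 (3758715 to 3762899, plus strand), with 12 of 1270 maternal reads, 0.945% (0.541–1.64%), and 2490 of 2514, 99.0% (98.6–99.4%), at its 1 SNP of pair 1. At 10 SNPs of pair 2 it had 69.4% and 71.7%, close to 2:1 (accession adjusted p = 0.0132 in edgeR). The scaffold 7 gene at 2140572 to 2141941 (minus strand) had 30.6% and 87.5% in pair 1, and 70.3% (54.2–82.5%) and 48.3% (35.9–60.8%) in pair 2 (edgeR adjusted p = 0.033). Another 2 genes with large differences in pair 1 did not pass. They lay on scaffold 8 (6282028 to 6282712, plus strand), with 27.9% and 84.7% in pair 1 and an edgeR adjusted p of 0.155, and on scaffold 5 (13355569 to 13356690, plus strand), with 77.9% and 39.7% and 0.210.

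In Co, 6 of 28 members (21.4%) were called for accession, near the 18.2% of all tested genes, and 7 of 20 next in rank. The labels name only A and B in Co, and in all 6 the terms of both pairs had 1 sign. On scaffold 8 (630273 to 633162, plus strand) the maternal share was 97.8% and 5.61% in Co pair 1 and 97.7% and 1.82% in Co pair 2, at 1 SNP (edgeR adjusted p = 8.39e-12). On scaffold 6 (13239601 to 13240911, minus strand) it was 8.70% and 99.1%, and 4.65% and 95.9%, also at 1 SNP (1.03e-10). These genes were chosen after their values were seen. In Cg pair 1 their summed shares stood within 10 points of 2:1, at 66.4% and 62.5% in the scaffold 8 gene and at 68.5% and 56.7% in the scaffold 6 gene. Those of Cg pair 2 did not, at 34.6% and 83.3% in the scaffold 8 gene and at 39.4% and 71.2% in the scaffold 6 gene. Each held a SNP read from a single accession in that pair, and the scaffold 8 gene was also called for accession in Cg (edgeR adjusted p = 0.0426).

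A milder Co case, chosen likewise, was the scaffold 8 gene at 8493639 to 8495210 (minus strand). It had 52.5% and 77.0% in Co pair 1 and 53.3% and 75.5% in Co pair 2, nearly the same in both pairs (edgeR adjusted p = 9.34e-05). Its Cg pair 1 shares were 60.3% and 73.2%, and in Cg pair 2 it had 0 of 137 maternal reads, which allows up to 2.19%, and 263 of 266.

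Some members far from 2:1 could not enter the Cg fit, and they are given as values chosen after they were seen. In both directions of pair 1, 7 members lay over 10 points above 2:1 and 4 over 10 points below it. Of those not yet described, the scaffold 3 gene at 1151009 to 1151549 (minus strand) had 99.4% and 99.3% maternal over 1 SNP. That on scaffold 4 at 11195919 to 11196798 (plus strand) had 99.2% and 98.9% over 2 SNPs. That on scaffold 4 at 13513448 to 13515381 (plus strand) had 89.1% and 89.2% over 1 SNP. None of these 3 had an exonic SNP in another table.

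On scaffold 8, the gene at 6227717 to 6228966 (minus strand) had 94.3% (93.7–94.9%) and 92.9% (92.2–93.5%) in pair 1. In pair 2 all of 23 reads and 14 of 16 were maternal. In Co it stood near 2:1, at 68.5%, 61.5%, 66.2% and 64.3%. On the paternal side, the scaffold 1 gene at 11452090 to 11454311 (plus strand) had 27.1% and 13.6% maternal at 1 SNP of pair 1, and 1 read in pair 2.

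The edge of the list was not marked by a step. The last 5 members had 2791, 2784.5, 2757, 2745 and 2745 reads per SNP, and the 5 genes after them had 2728.33, 2727, 2718.5, 2716.7 and 2708.89. Just inside, the scaffold 3 gene at 7414758 to 7415449 (plus strand), rank 200, had maternal shares of 60.0% and 70.2% in pair 1. The scaffold 3 gene at 8755887 to 8756364 (minus strand), rank 198, had 31.9% and 64.3%, and the scaffold 4 gene at 9732564 to 9733911 (minus strand), rank 197, had 58.3% and 73.5%.

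Just outside, the scaffold 1 gene at 7866805 to 7869536 (minus strand) had 64.8% and 71.0%. Rank 202, on scaffold 2 (12971263 to 12972864, minus strand), had 61.7% and 69.3%, and rank 203, on scaffold 3 (4160459 to 4163217, minus strand), had 66.9% and 67.0%. Rank 204, on scaffold 5 (11133499 to 11134944, minus strand), had 62.0% and 70.9%. The last of these 5, on scaffold 4 (8526546 to 8532043, plus strand), had 39.1% and 36.0%. Values near to and far from 2:1 thus stood on both sides of the edge.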

How the data were processed

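The deposited tables hold raw allele counts: per the file headers, maternal and paternal reads at each SNP in 2 cross directions, with exon and gene intervals. Per the submitters' processing notes, Trimmomatic, Bismark and Bowtie2 were used, in roles that are not named. How RNA reads were aligned, SNPs called and repeat runs joined, and on which build, was not given in the sources used here. Columns were tied to a species by the table names with the series design, and to no sample. A further 24 columns of each table were not used, and values of the leaf samples were not analysed here.

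Counts were summed over the exonic SNPs of a gene (all SNPs of a gene were an alternative). edgeR 4.0.16 (R 4.3.3) fitted, per species, cross direction as a block, accession within each pair and parent, with a 2:1 offset. The fit covered genes with at least 20 reads in every direction. With 1 residual degree of freedom for each gene, the spread rests largely on what is shared across genes. Pairing is part of the design, since both alleles were counted in the same cross direction. Adjusted p-values are Benjamini-Hochberg, called at 0.05, and SE is the absolute deviation over the square root of F. DESeq2 1.42.0 was an alternative, and scripts were tested on simulated data. Where a parent had 0 reads, 3 counts gave the limit.

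Genes named were the 10 with most reads per SNP, the 5 with most reads, those called for parent on 1 side in all directions, the 5 tested members with the largest accession difference in Cg pair 1, the 5 nearest 2:1 in both species, and ranks 196 to 205. Members and lists were chosen with earlier results of these data known. The gene-function lists planned for an annotation were not used here.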

Additional observations from a re-analysis of the deposited data

How the results depend on the processing

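The main counts, shares and named deviations were recomputed with other lists, filters, scalings and models. The members' median deviation, -0.11 in Cg, was 0.09 with TMM, 0.04 with the median null and 0.11 without direction 1 of pair 2. In Co, -0.03 became 0.02 without direction 1 of pair 1 and 0.0014 at a minimum of 50 reads. In Cg, 5 members called for parent became 10 of 241 with 400 members (1.76% of all tested genes). At a minimum of 1 read they became 8 of 135 (2.47%). Without the accession term 0 were called (0% of all), and 6 had an unadjusted p under 0.05. The 29 members called for accession became 12 of 60 with 100 members (4.98% of all). They became 19 of 108 at a minimum of 50 reads (4.39%) and 55 of 135 at a minimum of 1 read (8.67%). In Co, the 1 member called for parent became 5 of 48 with 400 members (7.58% of all) and 4 of 32 with all SNPs (10.1%). The count was 2 of 28 with TMM (8.74%), with SNPs read in both directions (8.79%) and with the median null (8.90%). It was 0 with DESeq2 (3.22%), where 1 member had an unadjusted p under 0.05, and 0 without the accession term (0%). The 6 Co members called for accession became 2 of 14 with 100 members and 13 of 48 with 400 members (18.2% of all in both cases). With all SNPs they became 13 of 32 (24.3%).

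Without the replicate block, which pairs the alleles of a direction, 0 members were called for parent in Cg (2 at an unadjusted p under 0.05). In Co 0 were called for parent (2), and in Cg 0 for accession (3). Of all tested genes, 0%, 2.31% and 0% were called in these 3 cases. Leaving out a direction gave 0 to 5 and 0 to 0 members called for parent in Cg and Co, and 0 to 37 and 0 to 3 for accession. Of all tested genes, such fits called 0% to 1.44% and 0% to 2.70% for parent in Cg and Co. For accession they called 0% to 9.04% and 0% to 5.10% of all. Both zeros in Cg came without direction 1 or 2 of pair 2, where 0 of all genes were called, and such a fit lacks the pair's accession term by construction. In Cg the deviations of the 5 called genes kept their sign throughout, and DESeq2 called all 5.

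The Cg share of reads given next includes the pair by whose reads the members were chosen, so it is a description only. It is not a like-for-like value to the Co share. In the other Cg pair, which the choice did not use, the members held 8.45% and 5.48% in its directions. A longer list that contains the shorter one holds more reads by construction. Averaged over directions, the members held 10.2% of Cg exonic reads, which became 6.12% with 100 members and 16.1% with 400. The Co value of 6.68% became 4.37% and 10.3%, 3.28% when ranked by summed reads and 5.40% among genes with at least 3 SNPs. These rankings shared 77 and 71 genes with the 200. The Co share of members within 5 points, 44.2%, became 28.7% and 33.1% under them. The Co maternal share of 65.5% became 66.5% with at least 3 SNPs and 64.6% with all SNPs. The Co values rest on at most 36 genes, and depth in Cg pair 2 and Co limited which genes could be tested.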

Other observations

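SNPs listed inside the interval of a member but outside its annotated exons gave maternal shares that differed from those of its exonic SNPs. They held 4.04% and 4.12% of the members' reads in the directions of Cg pair 1, against 9.29% and 9.41% in other genes, and 5.49% to 7.95% in the other 6 directions, against 9.92% to 21.3%. Their maternal share was 57.4% and 54.7% in Cg pair 1, against 52.8% and 61.0% in other genes. It was 62.5% and 37.1% in Cg pair 2, against 58.0% and 47.6%. In Co pair 1 it was 59.6% and 40.8%, against 56.9% and 45.7%, and in Co pair 2 it was 62.3% and 43.5%, against 63.2% and 46.5%. Direction 2 was the lower in all 4 tables for the members.

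Single SNPs of one member did not always give one value. Among the 70 members with at least 3 exonic SNPs of 20 reads in Cg pair 1, the lowest and the highest SNP differed by a median of 11.4 and 12.6 points in the directions, and by over 20 points in 25 and 24 members. In other genes these medians were 18.4 and 19.2 points. At single SNPs with 20 reads in both directions, a single accession was read at 7 of 506 member SNPs in Cg pair 1 (1.38%), against 2.27% in other genes, and at 31 of 259 in Cg pair 2, against 541 of 4905 in other genes. In 4 members of pair 1 and 14 of pair 2, such a SNP stood beside other SNPs of the same gene that were read from both accessions.

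Among the members, 15 lay within 5000 bases of another, in 8 pairs, and 10 of the 200 genes next in rank did so among themselves. On scaffold 1, members at ranks 52, 7 and 10 followed each other, with gaps of 4827 and 363 bases. On scaffold 6, the member with most reads lay 3807 bases past the member at rank 153.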
